A study of Mus musculus with 9 samples.

Results

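The BCL2 family holds the genes that set whether a cell under stress keeps its mitochondria intact. The 10 genes described here were taken from the deposited expression tables by their gene symbols: the anti-apoptotic genes Bcl2, Bcl2l1 and Mcl1, the effectors Bax and Bak1, and the BH3-only genes Bcl2l11, Bbc3, Pmaip1, Bid and Bad. Each symbol had 1 row of its own, so they made up 10 of the 23332 gene rows. The RNA came from FVB MOE, a monoclonal line of secretory murine oviductal epithelium from the FVB strain, and the experiment asked which genes estrogen and a selective estrogen receptor modulator regulate in these cells. All cells were kept for 48 h in hormone-stripped medium and then given 0.1% DMSO (the solvent), 1 nM 17-betaestradiol (E2) or 100 nM 4-hydroxytamoxifen (4OHT), both dissolved in DMSO, for 24 h, with 3 samples per condition. The growth medium used before starvation contained 17-betaestradiol, so no condition was free of earlier exposure. The line is 1 clone, and the labels give replicate numbers but do not say that these were separate cultures, so the p-values measure only the spread between these samples, which may be technical.

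Anti-apoptotic family members bind and hold in check both the effectors and the BH3-only proteins. When BH3-only proteins accumulate or are activated, Bax and Bak1 oligomerise in the outer mitochondrial membrane and cytochrome c leaves the mitochondrion, which starts caspase activation. The family is named after Bcl2, a well known estrogen-induced gene in breast cancer cells, and Bbc3, Pmaip1 and Bax are textbook targets of p53. Much of the family's control acts on protein stability, phosphorylation and cleavage, none of which RNA measures. In RNA from a whole culture, fewer cells of a kind and less RNA per cell cannot be told apart.

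The feature that joins all 10 genes is the BH3 motif, in which a leucine is followed 5 residues on by an aspartate. The coding stretch of 18 bases is shown for 9 genes, 5′ to 3′ on the coding strand of the GRCm38 (mm10) reference. It is shown because this short motif takes part in the binding between the opposing arms of the family. Capitals mark the codon of the leucine and the codons of the 2 last residues.
Bcl2: CTCcgccgggctGGGGAT
Bcl2l1: CTGagagaggcaGGCGAT
Mcl1: CTGcggcgcgtgGGCGAC
Bax: CTCcggcgaattGGAGAT
Bak1: CTTgctctcatcGGAGAT
Bcl2l11: CTGcggcggatcGGAGAC
Bbc3: CTGcggcggatgGCGGAC
Bid: CTCgcccaaataGGCGAT
Bad: CTCcgaaggatgAGCGAT
The residue before the aspartate was G (glycine) in Bcl2, Bcl2l1, Mcl1, Bax, Bak1, Bcl2l11 and Bid, A (alanine) in Bbc3 and S (serine) in Bad. The stretch lay in exon 1 of Mcl1 at chr3:95659436-95659453 on the plus strand, and in exon 4 of Bid at chr6:120897298-120897315 on the minus strand. In Pmaip1 the pattern was found at 2 places, at residues 27 and 78 of its 103-residue protein.

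The promoters of Mcl1 and Bid are shown because these were the members that passed the test when the replicate number was used as a block. RefSeq start windows (300 bases, GRCm38.p6) were available for 9 of the members, in 15 windows. The 250 bases before the start are given for the transcribed strand, with capitals on the GC box GGGCGG on either strand. The Mcl1 window was chr3:95658471-95658720 on the plus strand and the Bid window chr6:120916825-120917074 on the minus strand.
Mcl1: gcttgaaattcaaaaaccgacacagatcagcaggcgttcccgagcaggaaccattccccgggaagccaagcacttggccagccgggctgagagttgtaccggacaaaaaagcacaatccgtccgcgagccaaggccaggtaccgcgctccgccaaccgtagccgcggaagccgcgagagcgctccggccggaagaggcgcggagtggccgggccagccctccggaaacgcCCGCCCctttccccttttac
Bid: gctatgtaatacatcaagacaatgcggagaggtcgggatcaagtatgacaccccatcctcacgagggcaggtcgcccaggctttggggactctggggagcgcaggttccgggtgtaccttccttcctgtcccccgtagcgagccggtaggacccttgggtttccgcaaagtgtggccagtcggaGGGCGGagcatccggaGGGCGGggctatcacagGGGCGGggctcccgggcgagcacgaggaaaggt
The estrogen response element palindrome GGTCANNNTGACC was in 0 of the 15 windows and in 0.07% of all 32851 RefSeq windows of that length. Its half-site GGTCA, which the palindrome contains and which was searched on both strands, was in 6 of 15 windows against 40.5% of all windows. The GC box was in 10 of 15 windows against 35.7%. The p53 half-site was in 1 of 15 windows, that of Bax, against 8.36%. Bcl2l1, Bcl2l11, Bbc3 and Bad gave more than 1 window each, and some windows of Bbc3 overlap. The 15 windows are therefore not independent, and their shares were not tested against those of all windows. These matches describe letters within 300 bases and no binding was measured.

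Values are FPKM, fragment numbers divided by transcript length and library size, so levels of different genes can be set side by side. The 9 libraries summed to between 522517 and 588640 FPKM. Read totals were not used here, and the smallest steps between low values gave depths relative to DMSO replicate 1 of 0.818 to 1.17, with each 4OHT library (0.818 to 0.927) shallower than each DMSO library (1.00 to 1.17). Of all rows, 11339 reached 1 FPKM in at least 3 samples and were tested, and all 10 members did. None of the members was listed at exactly 0 in any sample, whereas 9085 rows of the tables were. The estrogen response was visible in the libraries labelled E2: Pgr, the progesterone receptor, was at 38.1, 21.1 and 15.9 FPKM in E2 replicates 1 to 3 and at 9.58, 1.36 and 1.16 in DMSO. The secretory line carried Pax8 at 105 to 150 FPKM and the keratins Krt7, Krt8, Krt18 and Krt19 at 112 to 927 FPKM, while the epithelial markers Epcam and Cdh1 did not pass 0.422 FPKM and the oviduct glycoprotein Ovgp1 stayed at 1.44 to 2.61. Ptprc and Cd3e of leukocytes, Pecam1 and Cdh5 of endothelium and Col1a2 and Col3a1 of fibroblasts stayed at or below 0.100 FPKM. Other markers on the same lists were expressed: Cd68 of leukocytes at 3.01 to 4.01 FPKM, Kdr of endothelium at 0.445 to 1.28, Col1a1 and Dcn of fibroblasts at 1.84 to 6.73 and 0.416 to 21.0, and Foxj1, Rsph1 and Ccdc39 of ciliated cells at 8.95 to 15.9, 2.98 to 3.86 and 1.00 to 1.71. Vim, of mesenchymal cells, reached 1641 to 2050 FPKM.

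Across the 9 samples the family spanned from Bax, with a mean of 145 FPKM, to Bcl2l11, with a mean of 2.97 FPKM. Bax was higher than 95.1% of tested rows. Bcl2l1 (72.9), Bak1 (69.4), Mcl1 (51.2), Bid (36.2), Bad (27.4) and Pmaip1 (24.4) also lay above the median tested row, whose mean was 13.6 FPKM. Bbc3 (7.51), Bcl2 (6.85) and Bcl2l11 lay below it. Among the anti-apoptotic members, Bcl2l1 and Mcl1 thus gave most of the FPKM and Bcl2 was the lowest. The order of neighbours was clear of the spread between samples except for Bcl2l1 and Bak1 in DMSO and 4OHT, Bad and Pmaip1 in all 3 conditions, Bid and Bad in E2, and Bcl2 and Bbc3 in E2 and 4OHT, whose ranges overlapped.

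**Figure D1:**
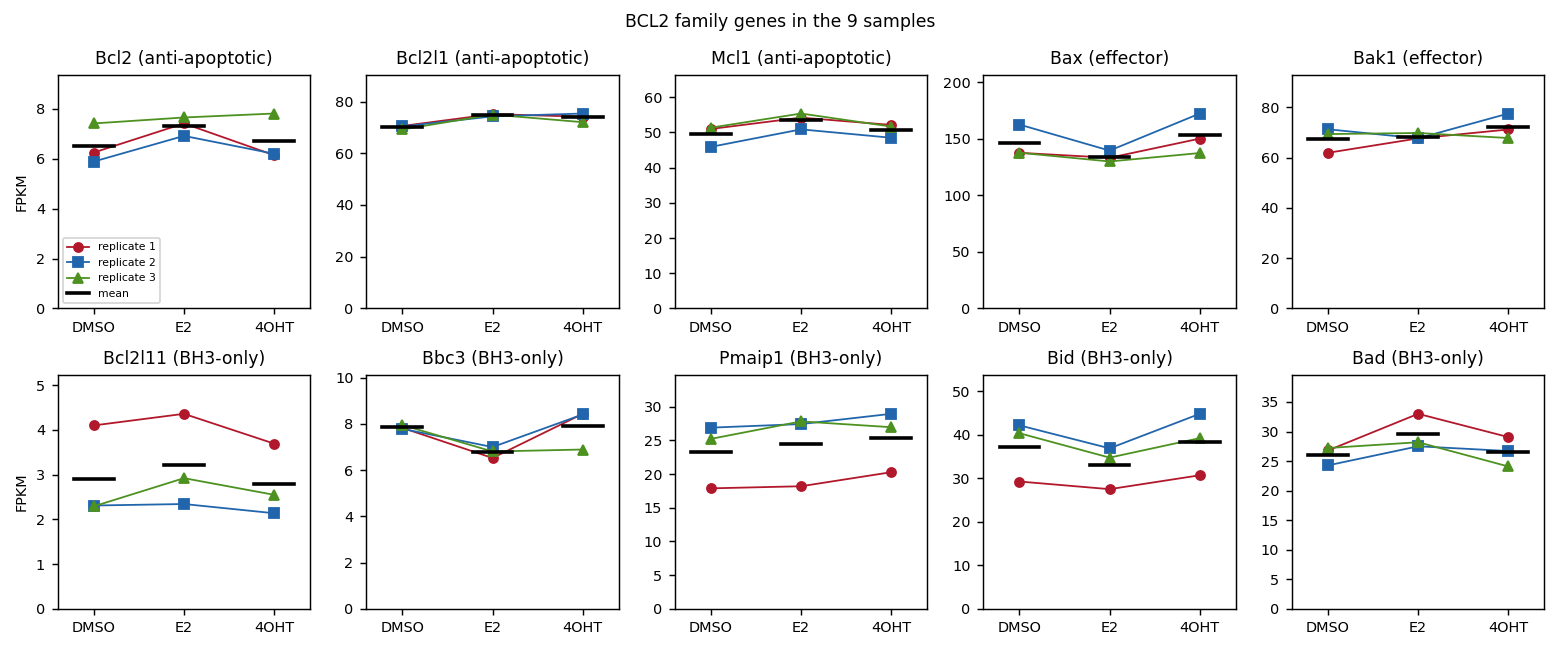
FPKM of the 10 members (vertical axis, from 0) in DMSO, E2 and 4OHT, with 1 panel per gene; points are samples, lines join samples with the same replicate number and black bars are means of 3. Replicate 1 stands apart in Bcl2l11, Pmaip1 and Bid, and the lines run nearly parallel for Mcl1 and Bid.

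In E2 compared with DMSO, the anti-apoptotic members were all higher in every replicate pair, by 6.76% (Bcl2l1) to 12.4% (Bcl2) between means. Bax, Bbc3 and Bid were lower in every pair. The BH3-only genes Bcl2l11, Pmaip1 and Bad were higher in every pair, and Bak1 was mixed. When the replicate number was included as a block, Mcl1 rose and Bid fell past the threshold, and without the block no member passed it. The threshold was an adjusted p of 0.05 from limma's moderated test with Benjamini-Hochberg adjustment over all 11339 rows. Without the block 0 of 10 members were called, against 0.512% of all rows (58). With it 2 of 10 were called, against 15.0% of all rows (1702), so the share of members called was near that of the whole table. Of these 1 was higher (10.4% of rows) and 1 lower (4.63%).

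Mcl1, a short-lived survival protein, was measured at 51.0, 45.9 and 51.3 FPKM in DMSO replicates 1 to 3, at 54.2, 50.9 and 55.4 in E2 and at 52.1, 48.5 and 51.7 in 4OHT. The E2 and DMSO ranges overlapped because replicate 2 was the lowest of each condition, but E2 was higher within each pair, by 6.32%, 10.8% and 7.82%. The log2 fold change of E2 over DMSO was 0.11 (95% interval -0.027 to 0.25, adjusted p = 0.557) without the block and 0.11 (0.048 to 0.18, adjusted p = 0.0409) with it. With the block Mcl1 was no longer called when the libraries were scaled to the same upper quartile (adjusted p = 0.0675) or to the same total (adjusted p = 0.104), nor when replicate 1, 2 or 3 was left out (adjusted p = 0.145, 0.179 and 0.232).

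Bcl2l1, which encodes BCL-XL, was at 70.5, 70.4 and 69.2 FPKM in DMSO, 75.1, 74.3 and 75.0 in E2 and 74.1, 75.4 and 72.0 in 4OHT. It was the steadiest of the 10 genes, with a highest value 1.09 times its lowest, and each treated sample was above each DMSO sample. The log2 fold change of E2 over DMSO was 0.093 (0.0070 to 0.18, adjusted p = 0.420) and did not pass with the block (0.030 to 0.16, adjusted p = 0.0635).

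Bcl2 was at 6.25, 5.89 and 7.41 FPKM in DMSO, 7.41, 6.92 and 7.65 in E2 and 6.14, 6.20 and 7.81 in 4OHT. Replicate 3 was the highest of each condition, and the E2 and DMSO ranges overlapped. The E2 difference was 18.7%, 17.5% and 3.21% in the 3 pairs, with a log2 fold change of 0.15 (-0.091 to 0.40, adjusted p = 0.643) that did not pass with the block either (0.019 to 0.28, adjusted p = 0.113). Exons of D630008O14Rik, an antisense gene, share 558 bases with those of Bcl2.

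Of the effectors, Bax was at 138, 163 and 138 FPKM in DMSO, 133, 140 and 130 in E2 and 150, 172 and 138 in 4OHT. E2 was lower than DMSO in each pair (-3.19%, -14.2% and -5.59%) with overlapping ranges, and the log2 fold change of -0.12 did not pass (adjusted p = 0.692, or 0.155 with the block). It was called with the block only when the libraries were scaled to the same total (adjusted p = 0.0330). Bak1, the other pore former, was at 61.9, 71.3 and 69.4 FPKM in DMSO, 67.7, 67.7 and 69.8 in E2 and 71.2, 77.6 and 67.8 in 4OHT. Its E2 difference had no common sign over the pairs, and its log2 fold change of 0.020 (-0.14 to 0.18) turned to -0.0025 under upper-quartile scaling and to -0.0036 with equal totals. Exons of Bak1 share 437 and 177 bases with 2 annotated entries of Ggnbp1 on the other strand, and 192 bases of Bax with Gm45808 on the same strand. The libraries were directional but whether strand was used in the counting is not given in the sources used here. Values of members with an overlap on the other strand carry that uncertainty. The overlaps were read from the GENCODE annotation, whereas the authors used a gene annotation from UCSC, which may not hold the same entries. Strand cannot separate the bases that Bax shares with Gm45808.

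Among the BH3-only genes, Bid, which links death receptors to the mitochondrion once caspase 8 has cut it, was at 29.2, 42.1 and 40.3 FPKM in DMSO, 27.5, 36.9 and 34.7 in E2 and 30.7, 44.8 and 39.2 in 4OHT. Replicate 1 was the lowest in each condition, and E2 was the lowest of the conditions within each replicate. The differences of the E2 samples from their DMSO partners were -6.01%, -12.5% and -13.9%. The log2 fold change was -0.16 (-0.59 to 0.27, adjusted p = 0.771) without the block and -0.16 (-0.26 to -0.067, adjusted p = 0.0423) with it. With the block it was not called when no filter on low values was used (adjusted p = 0.0585) or when replicate 1, 2 or 3 was left out (adjusted p = 0.0979, 0.161 and 0.239). Exons of Bid share 628 bases with Bcl2l13 on the opposite strand. Bcl2l13 was higher in E2 than in DMSO in all 3 pairs (log2 fold change 0.12, adjusted p = 0.517, or 0.0720 with the block). The part of the shared bases in the values of Bid was not tested.

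Bbc3, which encodes PUMA, was at 7.83, 7.79 and 7.95 FPKM in DMSO and 6.52, 7.00 and 6.81 in E2, and 8.44, 8.41 and 6.89 in 4OHT. The E2 samples lay below all DMSO samples, and the log2 fold change of -0.19 (-0.36 to -0.016) had an adjusted p of 0.419, or 0.118 with the block. Bad, a BH3-only protein held inactive by phosphorylation, was at 26.8, 24.3 and 27.2 FPKM in DMSO, 33.0, 27.5 and 28.2 in E2 and 29.1, 26.7 and 24.1 in 4OHT. The E2 samples lay above the DMSO samples, with a log2 fold change of 0.17 (-0.042 to 0.38, adjusted p = 0.560, or 0.133 with the block). Exons of Bad share 524 bases with Gpr137 on the other strand.

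Pmaip1, which encodes NOXA and binds Mcl1, was at 17.9, 26.9 and 25.2 FPKM in DMSO, 18.2, 27.4 and 27.8 in E2 and 20.3, 29.0 and 27.0 in 4OHT. Bcl2l11, which encodes BIM, was at 4.10, 2.31 and 2.29 in DMSO, 4.36, 2.34 and 2.92 in E2 and 3.69, 2.14 and 2.55 in 4OHT. Their conditions differed far less than their replicates did, and the log2 fold changes of E2 over DMSO, 0.062 (-0.44 to 0.56) and 0.11 (-0.45 to 0.68), had adjusted p-values of 0.937 and 0.889.

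Over the 10 members, 9 had the same direction in all 3 pairs of E2 and DMSO, against 52.4% of all tested rows. Of these 6 were higher (28.1% of all rows) and 3 lower (24.3%), and Bak1 was mixed. The groups did not overlap for 3 of 10 members (Bcl2l1 and Bad higher, Bbc3 lower), against 15.2% of rows. At an unadjusted p under 0.05, 2 of 10 passed without the block against 10.9% of rows and 6 of 10 with it against 32.9%. The members' median log2 fold change was 0.078, beside -0.0027 over all tested rows. Of all rows called with the block in this comparison, 69.2% were higher in E2, but 52.8% with upper-quartile scaling and 49.8% with equal totals.

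**Figure D2:**
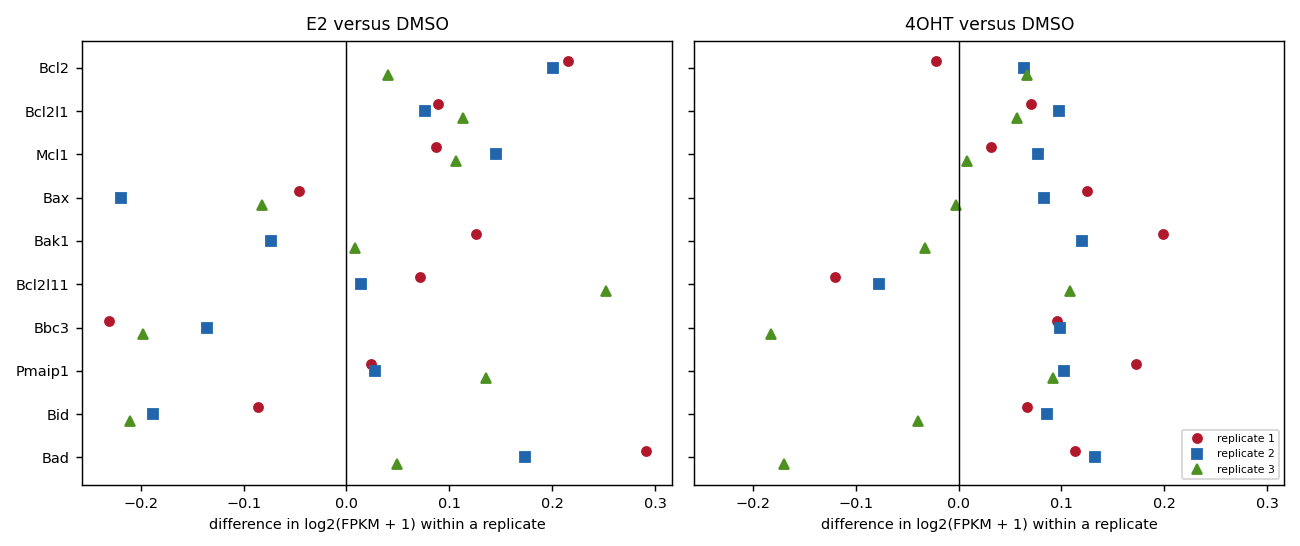
Difference in log2(FPKM + 1) from the DMSO sample with the same replicate number, for E2 (left) and 4OHT (right), with genes in rows and 1 point per replicate pair; 0 is no difference. In E2 all points of 9 genes lie on 1 side of 0, whereas in 4OHT this holds for 3 genes.

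No member was called in 4OHT compared with DMSO. Without the block 0 of 10 members were called, against 0% of all rows, and with it again 0 of 10 against 0%. At an unadjusted p under 0.05, limma gave 0 of 10 members without the block (2.76% of rows) and 2 of 10 with it, Bcl2l1 and Pmaip1 (13.1% of rows). Those 2 genes had the smallest adjusted p with the block, 0.376. Bcl2l1 was higher in 4OHT in all 3 pairs with groups that did not overlap, at a log2 fold change of 0.075 (-0.011 to 0.16), and groups did not overlap for 7.94% of rows. Bcl2l1, Mcl1 and Pmaip1 were higher in all 3 pairs, 3 of 10 against 30.2% of rows higher in all pairs and 45.9% with either direction. The differences were -0.030 for Bcl2l11 to 0.12 for Pmaip1, and without the block the intervals reached from -0.59 to 0.62. For the genes with the widest intervals, the block narrowed them to -0.18 to 0.12 (Bcl2l11), 0.022 to 0.22 (Pmaip1) and -0.057 to 0.13 (Bid).

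E2 and 4OHT share the DMSO samples in the comparisons above, so they were also set against each other directly. Without the block 0 of 10 members were called, against 0.159% of rows (18). With the block Bid was called, 1 of 10 against 16.2% of rows (1840), and fell by 0.20 on the log2 scale in E2 (-0.63 to 0.23 without the block, -0.29 to -0.10 with it, adjusted p = 0.0257). The 3 pair differences were -10.4%, -17.7% and -11.4%. Without replicate 1, 2 or 3 in turn the blocked call of Bid was lost (adjusted p = 0.103, 0.150 and 0.105). Bax was lower in E2 in all 3 pairs with a log2 fold change of -0.18 (adjusted p = 0.477, or 0.0510 with the block), and it passed with the block when libraries were scaled to the same upper quartile or total, or exact zeros were taken as missing. Of the 10 members 6 had 1 direction in all pairs (Mcl1, Bcl2l11 and Bad higher, Bax, Bbc3 and Bid lower), against 55.2% of rows, and no member had groups that did not overlap, against 18.3%. At an unadjusted p under 0.05, 1 of 10 passed without the block (Bbc3, 11.5% of rows) and 4 of 10 with it (Mcl1, Bax, Bbc3 and Bid, 37.2% of rows). The plot of fold changes shows that the block narrowed the intervals most for Bcl2l11, Pmaip1 and Bid.

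**Figure D3:**
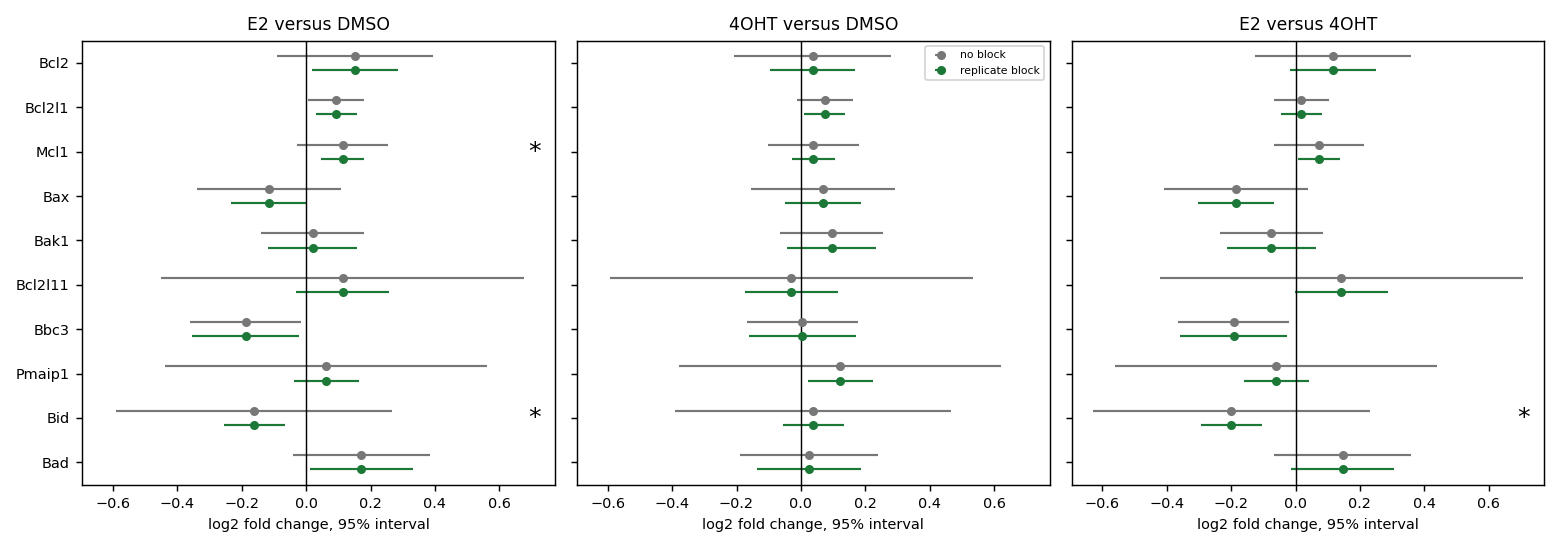
Log2 fold change with its 95% interval (horizontal axis) of each member in the 3 comparisons, without a block (grey) and with the replicate block (green); n = 3 samples per condition. Stars mark an adjusted p under 0.05 with the block, for Mcl1 and Bid in E2 versus DMSO and for Bid in E2 versus 4OHT.

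The largest variation within the family, in Bcl2l11, Bid and Pmaip1, was between replicate numbers. This did not hold for every member. In Bcl2l1 condition means ran from 70.0 to 74.8 FPKM and replicate means from 72.1 to 73.3. In Bbc3 condition means ran from 6.78 to 7.91 and replicate means from 7.22 to 7.73. Replicate 1 lay outside the other 6 samples for 3 of 10 members, against 20.7% of rows: Bcl2l11 was 1.67-fold higher in it (3.69 to 4.36 FPKM against 2.14 to 2.92), while Pmaip1 and Bid were 1.45- and 1.36-fold lower. Replicate 2 stood apart in Mcl1, which was lower (9.01% of rows), and replicate 3 in Bcl2, which was higher (11.0%). Estrogen receptor alpha (Esr1) was 1.98-fold higher in replicate 1 than in the others, Pgr 2.51-fold and Greb1 2.65-fold. Their part in the values of Bcl2l11, Pmaip1 and Bid was not tested. Over the 9 samples Pmaip1 and Bid varied together (Pearson r = 0.89) and Bcl2l11 moved opposite to both (r = -0.93 and -0.97), which is given as a description. Over the 6 samples without replicate 1 the r of Bcl2l11 with Bid was -0.84, while that of Bcl2l11 with Pmaip1 was 0.024 and that of Pmaip1 with Bid 0.10.

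The balance of the family arms was read from sums of FPKM, which are descriptions of the samples and were not tested. Anti-apoptotic over effector FPKM was 0.640, 0.522 and 0.618 in DMSO, 0.680, 0.637 and 0.690 in E2 and 0.598, 0.520 and 0.640 in 4OHT, with means of 0.593 ± 0.063, 0.669 ± 0.028 and 0.586 ± 0.061 (SD, n = 3). In each replicate E2 was the highest. The effector sum held Bax and Bak1 only and left out Bok, a further effector described below. Bok was at 101, 109 and 126 FPKM in DMSO, 119, 118 and 129 in E2 and 127, 125 and 125 in 4OHT. It was higher in E2 than in DMSO in all 3 pairs, by 18.4%, 8.57% and 2.21%. The anti-apoptotic sum held Bcl2, Bcl2l1 and Mcl1 only. It left out Bcl2l2, which was listed only in a row joined with Pabpn1, at 62.4 to 73.0 FPKM. That row was lower in E2 than in DMSO in all 3 pairs, and the share of Bcl2l2 in it is not known. Ratios with Bok or Bcl2l2 in the sums were not computed. The order and size of the differences between sums, here and below, therefore hold for the members only. The ratio of Bcl2l1 to Bax was 0.532 to 0.576 in E2, above 0.432 to 0.512 in DMSO and 0.437 to 0.524 in 4OHT. Bcl2 to Bax averaged 0.0451 in DMSO, 0.0547 in E2 and 0.0445 in 4OHT, with overlapping ranges. Anti-apoptotic over BH3-only FPKM was 1.49, 1.18 and 1.24 in DMSO, 1.53, 1.31 and 1.37 in E2 and 1.44, 1.17 and 1.32 in 4OHT, again highest in E2 in each replicate. Mcl1 to Pmaip1 was 2.85, 1.71 and 2.03 in DMSO, 2.98, 1.85 and 1.99 in E2 and 2.57, 1.67 and 1.92 in 4OHT. It was highest in E2 in replicates 1 and 2 and in DMSO in replicate 3.

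**Figure D4:**
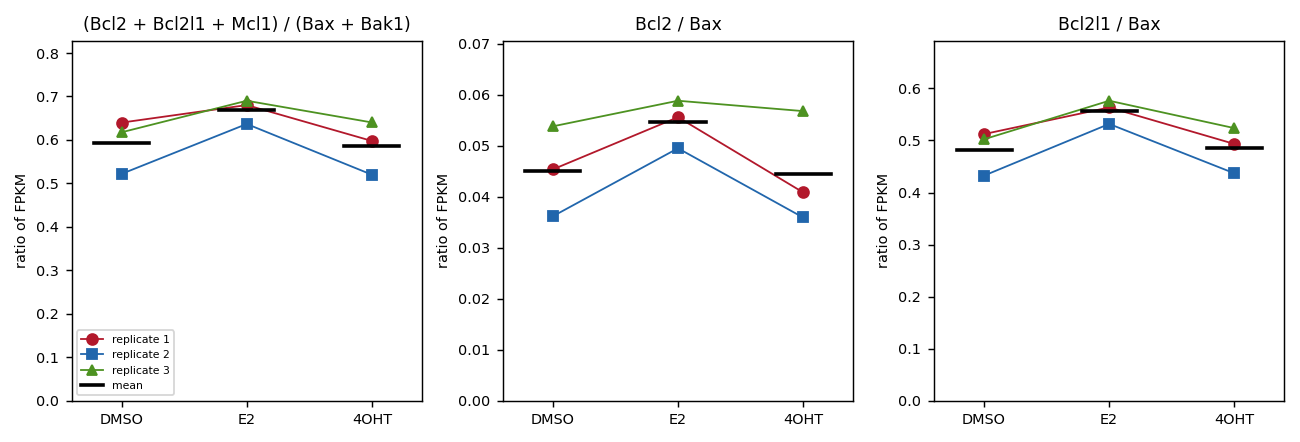
Ratios of FPKM (vertical axes, from 0) in DMSO, E2 and 4OHT: Bcl2, Bcl2l1 and Mcl1 over Bax and Bak1, Bcl2 over Bax and Bcl2l1 over Bax. Points are samples, lines join equal replicate numbers and black bars are means. E2 is the highest condition in each replicate in all 3 panels.

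The rest of the pathway was read from lists of genes. Of 16 further BCL2 family genes, 4 were tested in rows of their own (Bok, Bcl2l13, Bnip3 and Bnip3l), and none was called in any comparison, with or without the block. Bcl2l12 was tested in a row at 0.685 to 2.00 FPKM and in another at 10.1 to 13.6, and neither was called. In E2 compared with DMSO, the lower row fell in all 3 pairs (log2 fold change -0.42, adjusted p = 0.389, or 0.0835 with the block). The other row fell in 2 of 3 pairs (-0.13, adjusted p = 0.691, or 0.345 with the block). Bok, another multidomain effector, was at 101 to 129 FPKM. Bik, Bmf and Hrk, further BH3-only genes, stayed at or below 0.592 FPKM, and Bcl2a1b, Bcl2a1c and Bcl2a1d were listed at 0 in all samples. Bcl2l2 was listed only in a row joined with Pabpn1 (62.4 to 73.0 FPKM), so its own level and direction are not known. The joined row was lower in E2 than in DMSO in all 3 pairs. Its log2 fold change was -0.10 (adjusted p = 0.540, or 0.0532 with the block).

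Among the apoptosome and effector caspase genes, 12 of 12 were tested and none was called without the block. With it Dffa, the inhibitor of the caspase-activated DNase, rose in E2 over DMSO (log2 fold change 0.22, adjusted p = 0.0437) and over 4OHT (0.26, adjusted p = 0.0305). Apaf1, the scaffold of the apoptosome, rose in E2 over 4OHT (0.18, adjusted p = 0.0433). In the death receptor pathway 8 of 11 were tested, and with the block Cflar, which blocks caspase 8, rose in E2, at 15.3, 14.2 and 13.5 FPKM against 13.0, 12.1 and 11.7 in DMSO (0.21, adjusted p = 0.0132) and over 4OHT (0.22, adjusted p = 0.0131). In the inhibitor of apoptosis list 5 of 9 were tested and none was called. Xiap, which blocks effector caspases, was listed at exactly 0 in DMSO replicate 2 and at 26.2 to 34.3 FPKM in the other 8 samples, and such a 0 in an expressed gene can be a failed estimate. None of the calls of Dffa, Apaf1 and Cflar remained with 1 replicate number left out, where their smallest adjusted p was 0.0717. With all replicates and the block, Dffa against DMSO was also not called under upper-quartile scaling, equal totals or no filter (adjusted p = 0.0515, 0.0539 and 0.0864), nor were Dffa and Apaf1 against 4OHT with no filter (0.0611 and 0.0699).

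Of 15 partners and turnover factors of BCL2 proteins, 14 were tested. Pim1, a kinase that phosphorylates Bad, was at 27.4, 31.9 and 32.4 FPKM in E2 and at 15.2, 20.5 and 17.8 in DMSO. It rose in E2 without the block (log2 fold change 0.75, adjusted p = 0.0476) and with it (adjusted p = 0.00105). Bag1, a BCL2-binding co-chaperone, was at 188, 137 and 137 FPKM in E2 against 133, 105 and 106 in DMSO and passed with the block but not without it (0.41, adjusted p = 0.00355 and 0.390). Both were also higher in E2 than in 4OHT with the block (0.65, adjusted p = 0.00265 for Pim1, and 0.21, adjusted p = 0.0272 for Bag1). March5, an E3 ligase of the mitochondrial outer membrane, fell in E2 compared with 4OHT (-0.14, adjusted p = 0.0478 with the block). Usp9x, which deubiquitinates Mcl1, was listed at 0 in 7 of 9 samples and at 69.3 and 94.9 FPKM in the others, and was not tested. With 1 replicate number left out and the block, Pim1 passed in 3 of 3 fits of both comparisons (adjusted p = 0.0174 to 0.0463), Bag1 in 2 of 3 against DMSO and 0 of 3 against 4OHT, and March5 in 0 of 3. March5 was also not called with equal totals or no filter (adjusted p = 0.0648 and 0.0627). Without the block Pim1 passed in 2 of 15 alternatives (adjusted p = 0.0322 to 0.198) and in none of those that left out a sample.

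Of 14 p53 pathway genes, all were tested, none was called without the block, and with it the calls were all downward in E2. Trp53 was at 88.1, 99.1 and 84.2 FPKM in E2 against 104, 129 and 102 in DMSO (log2 fold change -0.29, adjusted p = 0.00518). Mdm2, which ubiquitinates p53, fell by 0.27 (adjusted p = 0.00327) and Phlda3, a p53 target, fell by 0.21 (adjusted p = 0.0315). These were 3 of 14 genes, against 15.0% of all rows called in either direction and 4.63% called lower. Over the list 6 genes were lower and 3 (Ccng1, Perp and Fas, none called) higher in all 3 pairs. Against 4OHT the same 3 genes fell, together with Cdkn1a, the p21 cell cycle inhibitor (-0.19, adjusted p = 0.0392), which made 4 of 14 against 16.2% of rows. No gene of these lists was called in 4OHT versus DMSO. Of Bax, Bbc3 and Pmaip1, the members named above as p53 targets, Bax and Bbc3 were lower in E2 than in DMSO in all pairs and Pmaip1 was higher. None of these 3 was called in that comparison under the deposited scaling. Bax was called there with the block under equal totals (adjusted p = 0.0330). With the block and 1 replicate number left out at a time, Trp53 and Mdm2 passed in 2 of 3 fits of E2 versus DMSO (adjusted p up to 0.0793 and 0.0679), and Phlda3 in 0 of 3 (0.0983 to 0.171). Against 4OHT they passed in 1, 1 and 0 of 3, and Cdkn1a in 0 of 3. Cdkn1a was also not called with no filter (adjusted p = 0.0611).

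**Figure D5:**
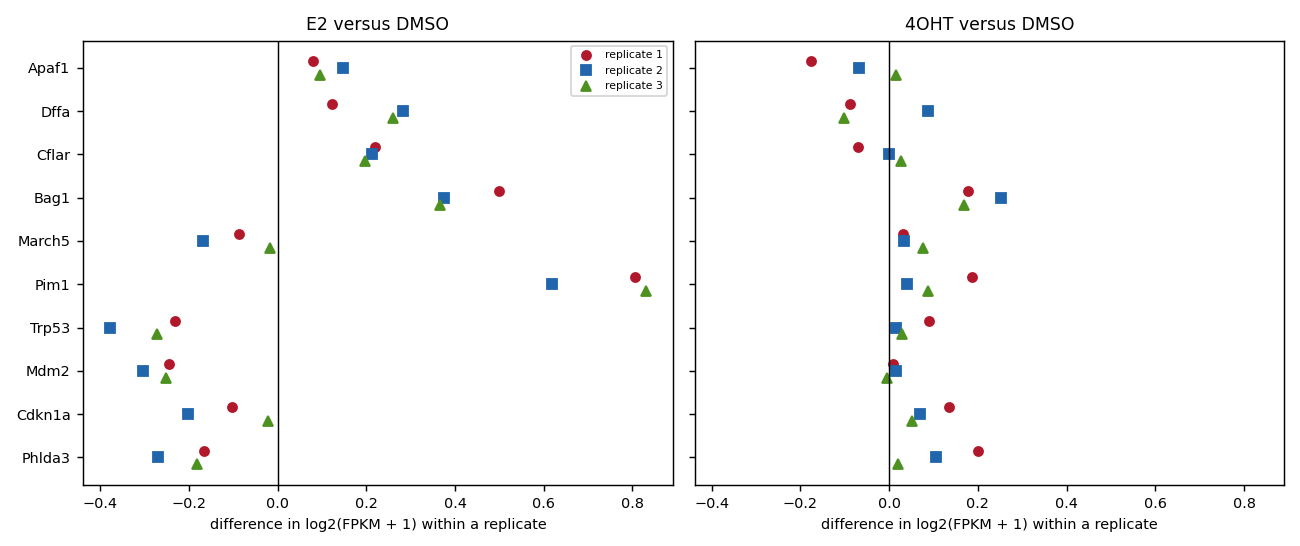
Difference in log2(FPKM + 1) from the DMSO sample with the same replicate number, for E2 (left) and 4OHT (right), for the 10 pathway genes called with the block in at least 1 comparison; 1 point per replicate pair. E2 points of Pim1 and Bag1 lie furthest to the right, and those of Trp53, Mdm2 and Phlda3 to the left, while 4OHT points lie within 0.3 of 0.

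The estrogen response list had 4 of 5 genes tested, and Pgr, Greb1, Esr1 and Csf2 all rose in E2 with the block, with log2 fold changes of 2.70, 2.00, 0.45 and 2.23 (adjusted p = 0.00253, 0.00525, 0.00424 and 0.000385). Csf2 also passed without the block (adjusted p = 0.0132). With the block and 1 replicate number left out at a time, Csf2 passed in 3 of 3 fits of E2 versus DMSO, Pgr and Esr1 in 2 of 3 (adjusted p up to 0.0524 and 0.0679) and Greb1 in 1 of 3 (up to 0.0831). Of the marker lists, with the block, 5 of 6 tested secretory markers rose in E2 over DMSO (Pax8, Krt7, Krt8, Krt18 and Krt19). The other, Ovgp1, was not called but was lower in all 3 pairs (log2 fold change -0.29, adjusted p = 0.101 with the block). Of 3 tested ciliated markers Foxj1 fell. Rsph1 was higher in all 3 pairs (0.19, adjusted p = 0.0533 with the block). Ccdc39 was lower in all 3 (-0.15, adjusted p = 0.256 with the block), and neither was called. Dcn of 3 fibroblast and Kdr of 1 endothelial marker rose. The 1 tested leukocyte marker was not called. Of all rows, 10.4% were called higher and 4.63% lower in that fit. Without the block Krt7 was the only marker called (adjusted p = 0.0476). With the block and 1 replicate number left out, Krt8 and Krt18 passed in 3 of 3 fits, Krt7, Krt19 and Dcn in 2 of 3, Foxj1 in 1 of 3 and Pax8 in 0 of 3, and Kdr was then below the filter on low values. Pax8 was also not called with the block under upper-quartile scaling, equal totals or no filter. The part of these markers in the members' values was not tested.

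The rows most like the 3 anti-apoptotic members over the 9 samples were found among 11093 tested rows with no exact 0. They were Usp53 (r = 0.97), Galnt7 (0.97) and Cnot7 (0.96) for Bcl2, Lrrc20, Hsd17b10 and Dctn5 (0.93 each) for Bcl2l1, and Tpd52 (0.99), Large (0.99) and Itfg1 (0.98) for Mcl1. The samples share libraries and the conditions, and these correlations carry no p.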

How the data were processed

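RNA of 9 FVB MOE samples was analysed from deposited tables of FPKM, 1 per sample. Per the labels and methods, the authors trimmed reads, aligned them to mm10 with TopHat2 2.0.8b and estimated FPKM of known genes with Cuffdiff 2.1.1. Further scaling between libraries and the strand setting are not given in the sources used here.

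FPKM values were converted to log2(FPKM + 1), and fold changes on this scale understate those of low genes. Rows with at least 1 FPKM in at least 3 samples were kept (11339 of 23332). limma 3.58.1 in R 4.3.3 was fitted to all 9 samples with 1 coefficient per condition, moderated with trend, with Benjamini-Hochberg adjustment over all rows and a threshold of 0.05, and exact zeros were kept. The fit was also run on simulated data. The differences added there were larger than those of the members, so that run does not show how differences of their size are found. Intervals are 95%. Samples with the same replicate number in the labels deviated together from their condition means over rows with no exact 0 (9 pairs, r = 0.52 to 0.83), and over all tested rows less so (0.05 to 0.29), so values with the replicate number as a block are given beside results. Conditions came from the labels.

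The members and lists were chosen with earlier results of these data known. The text names all members, the list genes past the threshold in either fit (at most 6 per list and comparison), list genes with an exact 0 and a median nonzero FPKM of at least 5, and for each anti-apoptotic member the 3 most similar rows. Other family genes and markers given by value were chosen after their values were seen. Alternatives were upper-quartile scaling, equal totals, a pseudocount of 0.1, no filter, zeros as missing, 6-sample fits and leaving out each sample. Promoters are from RefSeq (GRCm38.p6), and coding stretches and exon overlaps from the GENCODE annotation (GRCm38).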

Additional observations from a re-analysis of the deposited data

How the results depend on the processing

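No member was called without the block under the deposited scaling, upper-quartile scaling, equal FPKM totals, a pseudocount of 0.1, no filter, exact zeros as missing, 6-sample fits or any left-out sample. With the replicate block the pairs of called counts were 2 members and 1702 rows in E2 versus DMSO and 1 and 1840 in E2 versus 4OHT. With zeros as missing and the block they were 2 and 2128, and 2 and 2476, with 21 rows and no member in 4OHT versus DMSO. The added alternatives with the block, chosen after seeing the data, gave 1 and 1988, and 2 and 2130 (upper-quartile scaling), 2 and 2041, and 2 and 2027 (equal totals), 2 and 1711, and 1 and 1806 (pseudocount of 0.1), and 1 and 1392, and 1 and 1252 (no filter). Bid was called in all of these except E2 versus DMSO without the filter. Rows called without the block were 32 with no filter and 33 with equal totals in E2 versus DMSO, 10 with a pseudocount of 0.1, 9 with no filter and 37 with zeros as missing in E2 versus 4OHT, and 8 in 6-sample fits of both E2 comparisons, with 3 for 4OHT versus DMSO. Leaving out 1 sample gave 8 to 50 rows in E2 versus DMSO, 0 to 2 in 4OHT versus DMSO and 0 to 23 in E2 versus 4OHT. Without replicate 1, 2 and 3 in turn and with the block, which has fewer samples by construction, these were 491, 312 and 203 rows, then 3, 3 and 6, and then 215, 165 and 152, with 0 members called. The lowest pairing correlation was 0.053 over all tested rows.

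Directions turned only for differences that no fit called. In 4OHT versus DMSO, with or without the block, Bbc3 was -0.022 and Bad -0.0034 under upper-quartile scaling, and with equal totals Bcl2 was -0.016, Mcl1 -0.020, Bbc3 -0.049, Bid -0.021 and Bad -0.032. Bak1 in E2 versus DMSO was -0.0025 and -0.0036 under these scalings. With 1 sample left out, 4OHT versus DMSO ranged from -0.038 to 0.093 for Bad, -0.018 to 0.15 for Bax, -0.039 to 0.089 for Bbc3, -0.063 to 0.12 for Bcl2, -0.19 to 0.18 for Bcl2l11, -0.12 to 0.18 for Bid, -0.012 to 0.071 for Mcl1 and -0.050 to 0.27 for Pmaip1. E2 versus 4OHT ranged from -0.046 to 0.31 for Bcl2l11 and -0.21 to 0.13 for Pmaip1, and E2 versus DMSO from -0.040 to 0.060 for Bak1, -0.076 to 0.32 for Bcl2l11 and -0.11 to 0.25 for Pmaip1. With the block, 4OHT versus DMSO was -0.018 (Bad), -0.042 (Bbc3) and 0.016 (Bcl2l11) without replicate 1, and -0.028 (Bad) and -0.043 (Bbc3) without replicate 2. Bak1 in E2 versus DMSO was -0.032 without replicate 1, and Bcl2l1 in E2 versus 4OHT -0.0010 without replicate 3.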
